A study of Mus musculus with 5 samples.

Results

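The Dlk1-Dio3 domain of mouse chromosome 12 is an imprinted gene cluster, and its genes Dlk1, Meg3, Rian, Rtl1 and Dio3 are described here in embryonic stem cells (ESCs) and embryonic fibroblasts (MEFs). They were chosen by name, as 5 of 19938 genes that a probe set of a single gene measured on each array. Each group had 1 whole-transcript microarray, 5 in all. The stem cell groups were 2i and S ESCs, and the fibroblast groups were 4n 2i, 2n 2i and control MEFs. All groups were F1 cells, from crosses between 129X1/SvJ and MSM/Ms. The labels give no other genotype, treatment, age or passage, and they do not spell out S, 2n or 4n, so these serve as names only. The term 2i usually means culture with inhibitors of the kinases MEK and GSK3. In the sample titles 15 stands with 2i ESCs and with 2n 2i MEFs alike, while the titles of S ESCs (36), 4n 2i MEFs (2) and control MEFs (4) carry other numbers, whose meaning is not stated.

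In this domain the protein-coding genes Dlk1, Rtl1 and Dio3 are known to be expressed from the chromosome inherited from the father, and the noncoding RNA genes Meg3, Rian and Mirg, with the small RNA genes inside them, from the chromosome inherited from the mother. A region between Dlk1 and Meg3 that carries DNA methylation on the paternal chromosome controls the choice, and in mouse loss of that methylation is known to go with Meg3 on both chromosomes and less Dlk1. Meg3 is also known as a gene that is often silenced in cultured mouse stem cells. The arrays report total RNA of both chromosomes, so which allele was read cannot be told from these values. In bulk samples, fewer cells of a type and less RNA per cell cannot be told apart either.

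From Dlk1 to Dio3 the arrays measured 47 genes by probe sets of a single gene, each with 1 probe set. They comprised 3 protein-coding genes, 2 long noncoding RNA genes, 2 small nucleolar RNA (snoRNA) genes and 40 microRNA (miRNA) genes. Values are intensities in array units, and differences are of log2(intensity + 1). A floor was set on each array at the median intensity of the probe sets that name a gene, between 217.9 and 240.1 intensity units. A gene was compared between a pair of arrays where the brighter of its values stood at or above the floor. Of the 47 genes, 20 reached the floor on at least 1 array and 27 on none. All 20 reached it on the 4n 2i MEF array, and 3 of them, Rian, Mir337 and Mir431, only there, so their entry into a comparison rests on the array where they are high. Values below the floor hold an unknown part of background, and a log2 difference against such a value depends on it. For 17 of the 47 the same value was deposited for 2 or more of the MEF arrays, and for 5 of these for all 3, which is a feature of the deposited values and not a measured equality.

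A probe set named for a miRNA gene lies within a stretch that the longer noncoding RNAs of the domain also cover, and RNA columns of the kind used retain short RNA poorly. Mature miRNA, its precursor and the host transcript therefore cannot be told apart. The mature sequences below belong to the 8 miRNA genes that were at least 2-fold higher on the 4n 2i MEF array than on another MEF array and above the floor there, the difference on which most of this description turns. They are RefSeq sequences of build GRCm38.p6, all on the plus strand of chromosome 12, and capitals mark the seed, bases 2 to 8, which largely decides the targets of a miRNA.
mmu-miR-337-5p: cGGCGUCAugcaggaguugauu
mmu-miR-337-3p: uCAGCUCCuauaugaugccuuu
mmu-miR-665-5p: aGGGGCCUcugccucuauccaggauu
mmu-miR-665-3p: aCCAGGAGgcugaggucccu
mmu-miR-341-5p: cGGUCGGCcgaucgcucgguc
mmu-miR-341-3p: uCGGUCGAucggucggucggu
mmu-miR-329-5p: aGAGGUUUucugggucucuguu
mmu-miR-329-3p: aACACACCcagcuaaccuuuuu
mmu-miR-382-5p: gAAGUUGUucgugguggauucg
mmu-miR-382-3p: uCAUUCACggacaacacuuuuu
mmu-miR-134-5p: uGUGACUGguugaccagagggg
mmu-miR-134-3p: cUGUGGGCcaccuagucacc
mmu-miR-485-3p: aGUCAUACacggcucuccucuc
mmu-miR-377-5p: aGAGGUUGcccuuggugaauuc
mmu-miR-377-3p: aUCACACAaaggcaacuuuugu
These 15 arms carried 15 different seeds. All 40 measured miRNA genes of the domain had a RefSeq entry, and their 76 named mature arms carried 74 different seeds. The seed AUGUAAC was shared by miR-379-3p and miR-411-3p, and UGGAUAU by miR-376b-5p and miR-376c-5p. No seed was shared among the 8 genes.

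Of the protein-coding members, Dlk1 (Entrez Gene 13386) encodes a membrane protein with EGF-like repeats, also called Pref-1, that restrains adipocyte differentiation. Its intensity was 781.0 in 2i ESCs, 722.2 in S ESCs, 3436 in 4n 2i MEFs, 2267 in 2n 2i MEFs and 2270 in control MEFs. The ESC arrays were low and close together, the 2n and control MEF arrays nearly equal, and the 4n array highest. Rtl1 (Entrez Gene 353326), a retrotransposon-derived gene needed in mouse for the capillaries of the placenta, had 124.9, 111.3, 173.3, 152.2 and 154.8 intensity units in the same order of groups. Dio3 (Entrez Gene 107585), the deiodinase that inactivates thyroid hormone, had 76.20, 79.86, 87.23, 87.23 and 86.40. Both lay below the floor on every array, so no level of Rtl1 or Dio3 above background could be shown and no fold is given.

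Of the noncoding members, Meg3 (Entrez Gene 17263), a nuclear long noncoding RNA, varied most. Its intensity was 2829 in 2i ESCs, 1152 in S ESCs, 7831 in 4n 2i MEFs, 1661 in 2n 2i MEFs and 3412 in control MEFs. The ESC and MEF ranges overlapped, with the 2i ESC array above the 2n MEF array. Rian (Entrez Gene 75745), which hosts snoRNAs and miRNAs, had 146.5, 123.0, 342.6, 215.9 and 196.2 intensity units in the same order. Only the 4n 2i MEF array brought this probe set of Rian above a floor. Another probe set, which lists both AF357355 and Rian, lay above the floor on every array, at 539.6, 400.7, 1577, 613.3 and 536.9 in the same order. With 1 array a group there is no spread within a group, so neighbours in these orders cannot be separated by a test.

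**Figure D1:**
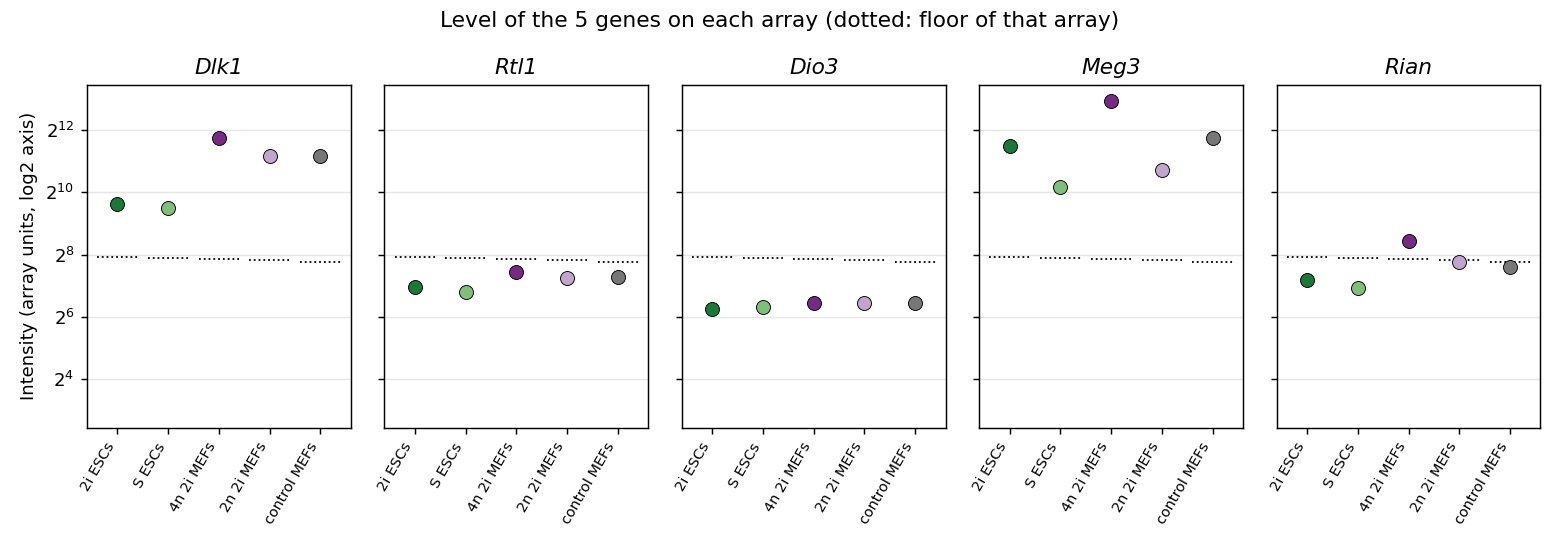
Intensity of each of the 5 genes (log2 axis, array units) on each of the 5 arrays, 1 point per array, with a dotted line at the floor of that array. Dlk1 and Meg3 lie above the floor on every array and peak on the 4n 2i MEF array, Rian passes it on the 4n 2i MEF array alone, and Rtl1 and Dio3 stay below it.

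Most genes of the domain had their highest value on the 4n 2i MEF array. Meg3 was 2.30-fold higher than on the control MEF array (7831 against 3412, log2 difference 1.20), and Dlk1 was 1.51-fold higher (0.60), within 2-fold. Rian lay within 2-fold too (0.80), while the probe set that lists AF357355 and Rian was at 1.55. Of 10356 genes compared in this pair, 416 were at least as far above the control array as Meg3 (4.02%) and 940 as Dlk1 (9.08%). Rian entered the comparison through the 4n 2i MEF array alone, so no place among these genes is given for it. With 1 array on each side no test was possible.

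Of the 47 genes of the domain, 20 were compared in this pair, and 7 were at least 2-fold higher in 4n 2i MEFs and none lower. Among all genes compared, 5.23% were at least 2-fold higher and 3.42% lower. The median of the 20 was 0.69, against -0.01 for all genes compared, and over all 47 at any level it was 0.40. Beside Meg3 the 7 were the snoRNA gene DQ267102 and the miRNA genes Mir377, Mir665, Mir382, Mir341 and Mir485. DQ267102 had 15180 intensity units on the 4n array against 3594 on the control array (log2 difference 2.08), a higher value than on any other array. Mir377 had 994.6 against 280.4 (1.82), and Mir665 had 631.6 against 244.0 (1.37).

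The remaining miRNA genes of this set were less far apart. Mir382 had 1017 intensity units on the 4n 2i MEF array and 411.8 on the control MEF array (1.30). Mir341 had 1258 and 519.1 (1.28), and Mir485 had 607.1 and 302.2, a 2.01-fold difference. Mir666 was the exception among the 20, at 267.6 and 277.3 (-0.05). Over all 47 genes, background levels included, 38 had a higher value on the 4n array than on the control array, 1 a lower and 8 an identical one. Of all 19938 genes at any level, 5462 had a higher value, 7297 a lower and 7179 an identical one.

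The 2n 2i MEF array stood on the other side of the control. Meg3 was 2.05-fold lower (1661 against 3412, log2 difference -1.04), and 40 of 10173 genes compared lay at least as far below the control array (0.393%). Dlk1 was nearly equal, at 2267 against 2270. Of 17 genes of the domain compared in this pair, Meg3 was the 1 at least 2-fold lower, none was at least 2-fold higher, and 16 lay within 2-fold. Among all genes compared, 0.433% were at least 2-fold lower and 1.47% higher.

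The smaller differences ran mostly one way. The median of the 17 genes was -0.28, against 0.00 for all genes. Of the 17, 14 were miRNA genes, all of them lower. Outside the domain 29 miRNA genes were compared, and 26 were lower and none higher, with a median of -0.14. The direction was therefore not particular to the domain. The lowest after Meg3 was Mir329, at 224.9 intensity units on the 2n 2i MEF array and 326.8 on the control MEF array (-0.54). The snoRNA gene DQ267102 went the other way, at 5922 and 3594 (0.72). Rian itself was at 215.9 and 196.2 (0.14), both below the floor.

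Set directly against each other, the 4n and 2n 2i MEF arrays were farther apart in Meg3 than either was from the control MEF array. Meg3 was 4.71-fold higher on the 4n array (7831 against 1661, log2 difference 2.24), and 73 of 10304 genes compared were at least as far apart in that direction (0.708%). Dlk1 (0.60) and Rian (0.66) lay within 2-fold, while the probe set that lists AF357355 and Rian was at 1.36. Of 20 genes of the domain compared, 10 were at least 2-fold higher on the 4n array and none lower, where 3.33% of all genes compared were higher and 2.36% lower. Their median was 0.93, against -0.04 for all genes.

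The 10 were Meg3, DQ267102 (1.36) and the 8 miRNA genes whose sequences are given above. The intensity of Mir377 was 994.6 on the 4n array and 227.9 on the 2n array (2.12). Mir382 had 1017 and 336.2 (1.59), and Mir134 had 1759 and 720.4 (1.29). Mir329 had 491.1 and 224.9 (1.12), and Mir337 had 334.6 and 156.3 (1.09). The 2n values of Mir329 and Mir337 lay below the floor, and Mir337 entered the comparison through the 4n array alone. The comparisons among MEF arrays share arrays, so their values are given side by side and their likeness is no separate evidence.

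**Figure D2:**
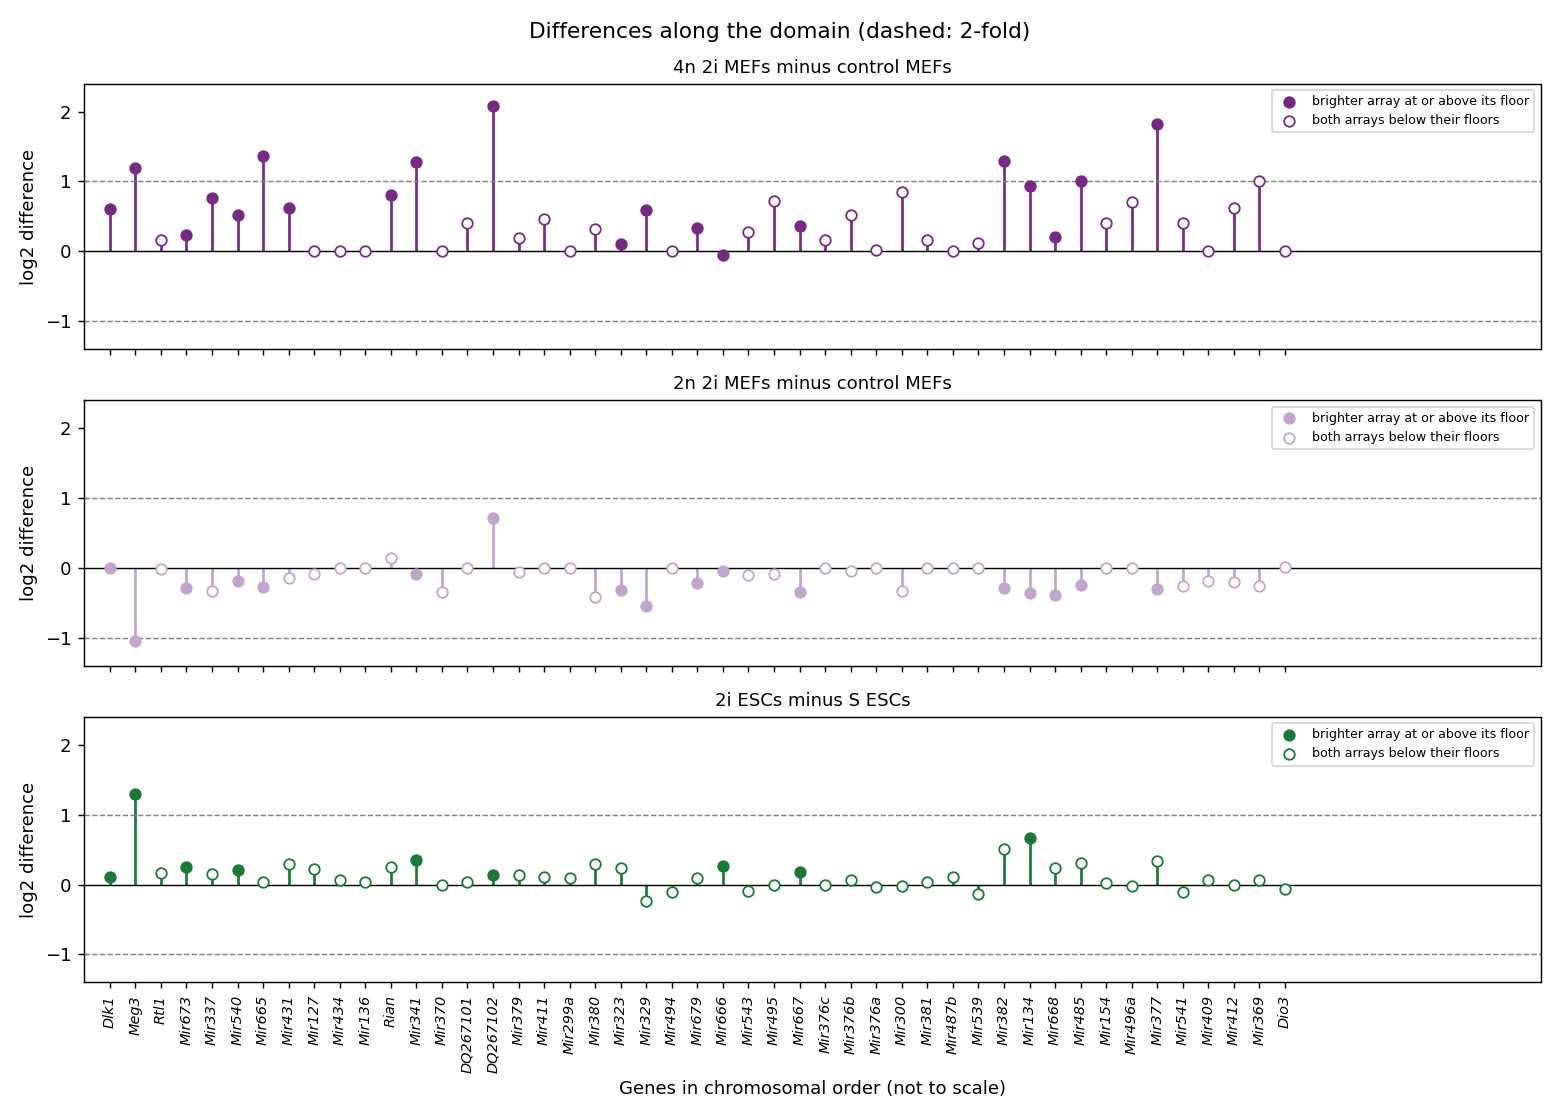
Log2 difference (vertical axis) of the 47 measured genes in chromosomal order, not to scale, for 4n 2i MEFs minus control MEFs, 2n 2i MEFs minus control MEFs and 2i ESCs minus S ESCs. Filled points have a brighter array at or above its floor, and dashed lines mark 2-fold. Meg3 is at 1.20, -1.04 and 1.30 in the 3 panels.

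Most genes of the domain had the MEF arrays in the same order. The value was lowest on the 2n array, higher on the control array and highest on the 4n array for 28 of the 47 genes (59.6%) and for 6.84% of all 19938 genes, both at any level. Of miRNA genes alone, this order held for 25 of 40 in the domain (62.5%) and 45 of 257 elsewhere (17.5%). The 4n 2i MEF array was the highest of all 5 arrays for 36 of the 47 (76.6%) and for 13.2% of all genes. The 2i ESC array was the highest for Mir673 and Mir666. These counts include the 27 genes below the floor on every array.

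**Figure D3:**
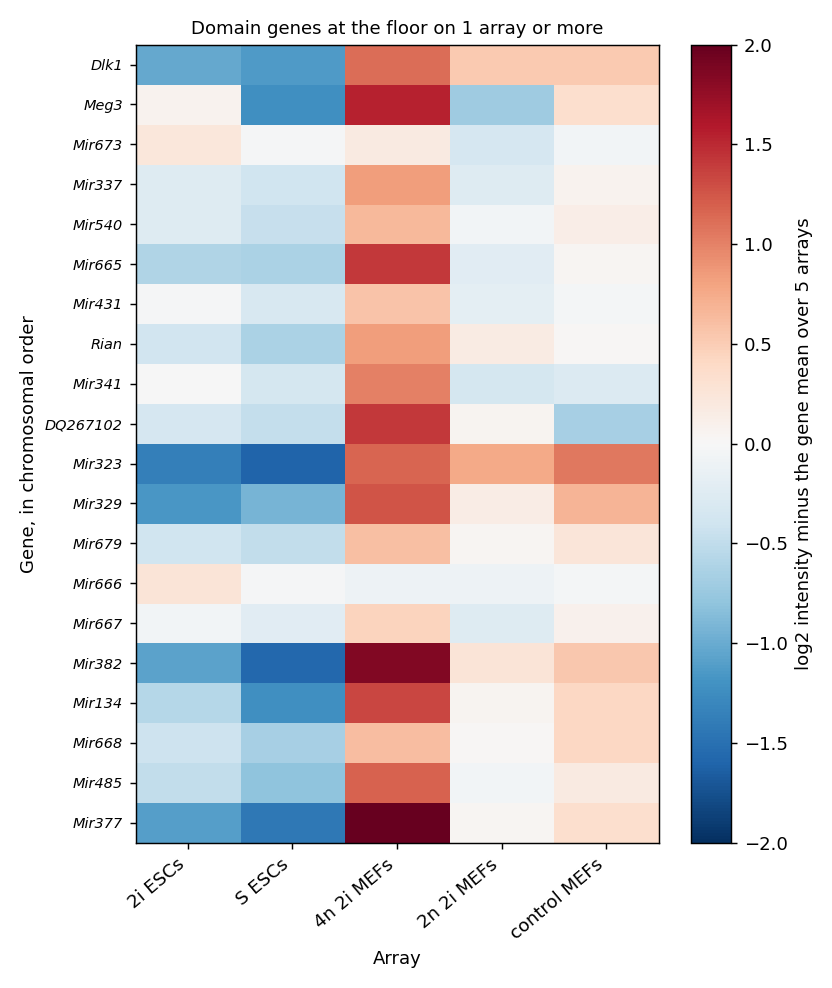
Log2 intensity of the 20 genes of the domain that reached a floor, each centred on its own mean over the 5 arrays (colour), for the 5 arrays in columns. The 4n 2i MEF column is the highest for 18 genes, all of which reached the floor on that array, and the S ESC column is the lowest for 15.

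The miRNA genes of other chromosomes and places were used as a second background, chosen after the data had been seen. On the 4n 2i MEF array 31 of the 40 miRNA genes of the domain (77.5%) had a higher value than on the control MEF array, 1 a lower and 8 an identical one. Of 257 miRNA genes elsewhere, 79 were higher (30.7%), 37 lower and 141 identical. On the 2n 2i MEF array none of the 40 was higher than on the control array and 29 were lower (72.5%), while elsewhere 17 were higher and 94 lower (36.6%). Median log2 differences were 0.35 in the domain and 0.00 elsewhere for 4n 2i MEFs minus control MEFs, and -0.16 and 0.00 for 2n 2i MEFs minus control MEFs. Most of these values lay below the floor, and the genes of the domain share host transcripts, so they are not independent of each other. Among miRNA genes compared past the floor, all 14 of the domain and 26 of 29 elsewhere were lower on the 2n array. Their medians were -0.28 and -0.14.

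Past the floor and at least 2-fold higher, the counts for 4n 2i MEFs over control MEFs were 5 of 16 miRNA genes of the domain and 1 of 30 elsewhere (3.33%). For 4n over 2n 2i MEFs they were 8 of 16 and 3 of 25 (12%). The difference between these groups of genes was not tested.

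**Figure D4:**
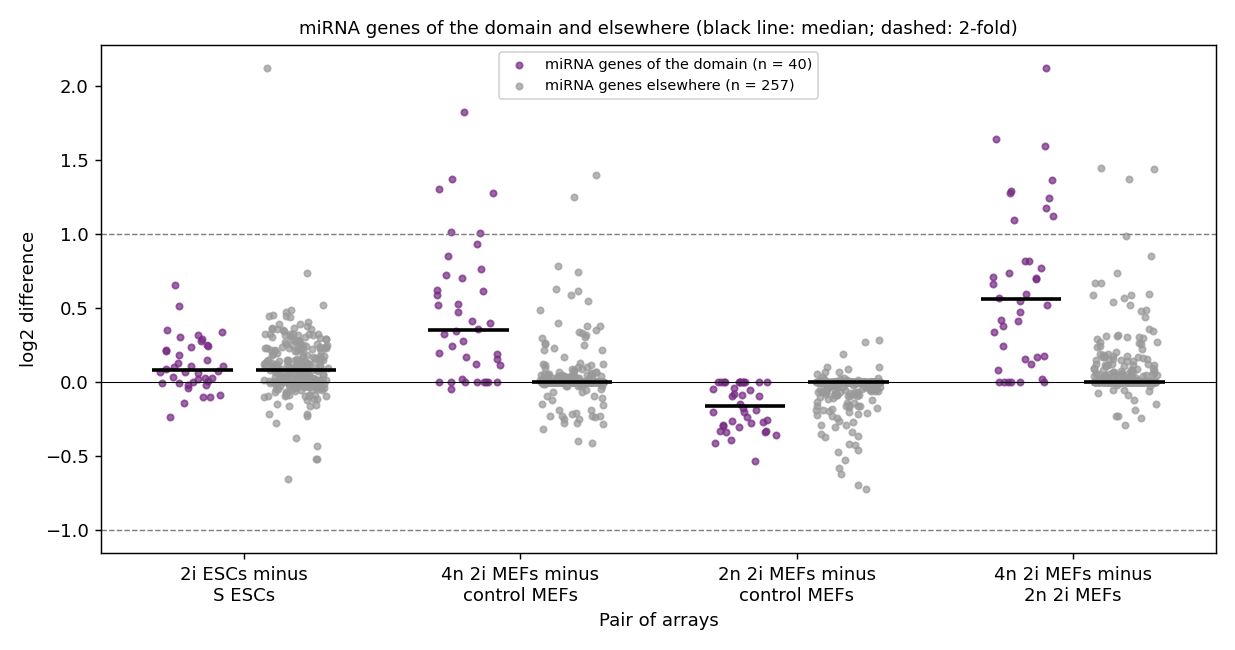
Log2 difference (vertical axis) of each miRNA gene of the domain (40 genes) and elsewhere (257 genes) for 4 pairs of arrays, with black lines at the medians and dashed lines at 2-fold. In 4n 2i MEFs minus control MEFs the medians are 0.35 and 0.00, and in 2i ESCs minus S ESCs both are 0.08.

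The nearest measured genes outside the domain were, on the side of Dlk1, Yy1, Slc25a29, Slc25a47, Wars, Wdr25 and Begain, and on the side of Dio3 Ppp2r5c, Dync1h1, 1700001K19Rik, Hsp90aa1, Wdr20 and Mok. None of the 7 compared was at least 2-fold apart between 4n 2i MEFs and control MEFs, and their median was -0.28. The neuronal gene Begain, next to Dlk1, was the highest of them (257.8 against 189.1 intensity units, log2 difference 0.44), and the chaperone gene Hsp90aa1 was the lowest (5118 against 7893, -0.62). None of the 6 compared between 2n 2i MEFs and control MEFs, nor of the 8 compared between 2i ESCs and S ESCs, was at least 2-fold apart. Among all genes compared with control MEFs, 5.23% were higher and 3.42% lower in 4n 2i MEFs, and 1.47% and 0.433% in 2n 2i MEFs. Between 2i ESCs and S ESCs the shares were 2.78% and 2.54%. A count of none among 7, 6 or 8 genes was near these shares. Mok, a protein kinase gene, was 4.48-fold higher in 2i ESCs than in 2n 2i MEFs (646.1 against 143.4, log2 difference 2.16). In ESCs against MEFs its log2 difference was 2.02. All MEF values of Mok lay below the floor, so the size of these differences depends on background. Mok entered the fit through the ESC arrays alone, and no test is given for it. The difference between the domain and its neighbours was not tested.

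Markers of another cell type moved with the 4n 2i MEF array. Of 12 macrophage markers, 8 reached the floor there, against 2 on the 2n 2i MEF array and 2 on the control MEF array. Their summed intensity was 19040 in 4n 2i MEFs, 1690 in 2n 2i MEFs and 2198 in control MEFs. Lyz2, the lysozyme of myeloid cells, had 5913, 429.0 and 689.0 intensity units on these arrays, while Ptprc, the general marker of leukocytes, and Itgam, Aif1 and Cd14 stayed below the floor on all of them. The 14 fibroblast markers all reached the floor on each MEF array, with summed intensities of 113500, 109400 and 107500. Single ones differed more than the sum: on the 4n array S100a4 was lower (1356 against 7578 on the control array, log2 difference -2.48) and the collagen gene Col3a1 higher (4582 against 1741, 1.40). None of 9 pluripotent cell markers reached it on any MEF array, and all 9 did on both ESC arrays. Single markers of other lineages moved too. Des, an intermediate filament gene of muscle, had 1339, 737.9 and 96.31 intensity units on the 4n, 2n and control MEF arrays, and Sox10, a gene of glia and neural crest, had 628.5, 196.0 and 176.1. Of 4 skeletal muscle markers compared between 4n 2i MEFs and control MEFs, Des was the 1 beyond 2-fold. Of 7 neural and glial markers compared, Sox10 and Map2 were higher and Tubb3 lower. Among all genes compared 5.23% were higher and 3.42% lower. The part of any of these markers in the values of the domain was not tested.

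Between the ESC arrays Meg3 was the member beyond 2-fold. It was 2.45-fold higher in 2i ESCs (2829 against 1152 intensity units in S ESCs, log2 difference 1.30), and 161 of 10493 genes compared were at least as far above the S ESC array (1.53%). Dlk1 had 781.0 and 722.2 intensity units (0.11). Of 9 genes of the domain compared, Meg3 was the 1 at least 2-fold higher, the other 8 lay within 2-fold, and none was lower by 2-fold, against 2.78% higher and 2.54% lower among all genes compared. All 9 were higher on the 2i array by some amount, as were 4724 of all 10493 genes compared. The median of the 9 was 0.25, against -0.04 for all genes compared.

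Of the other 8, Mir134 was the farthest apart, at 467.8 in 2i ESCs and 296.4 in S ESCs (0.66). Mir341 had 625.0 and 489.0 (0.35), and Mir673 had 368.0 and 309.4 (0.25). Such differences were also seen outside the domain. Over all levels 29 of its 40 miRNA genes (72.5%) had a higher value in 2i ESCs, and 177 of 257 elsewhere (68.9%), with medians of 0.08 and 0.08. Past the floor, 0 of 6 miRNA genes of the domain and 1 of 28 elsewhere (3.57%) were at least 2-fold higher.

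The arrays numbered 15, 2i ESCs and 2n 2i MEFs, differed in Dlk1 and little in Meg3. Dlk1 was 2.90-fold lower in the 2i ESCs (781.0 against 2267 intensity units, log2 difference -1.54). Meg3 was within 2-fold (2829 against 1661, 0.77). Of 14 genes of the domain compared, Dlk1, Mir382 (134.3 against 336.2, -1.32) and Mir377 (103.5 against 227.9, -1.13) were at least 2-fold lower in ESCs and none higher. Among all genes compared 19.3% were lower and 16.6% higher, so 3 of 14 was near the background. Of miRNA genes past the floor, 2 of 11 in the domain were lower and 0 higher, and of 29 elsewhere 1 was lower (3.45%) and 3 higher (10.3%).

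The contrast with more than 1 array on each side was that of the 2 ESC arrays with the 3 MEF arrays, fitted with limma over 11855 genes. Here the spread is that between conditions of a cell type and not between replicates of a condition, and the labels do not tell whether separate cultures or animals were used, so p-values measure only the spread between these samples. Dlk1 fell in ESCs, with a log2 mean of 9.55 ± 0.08 (SD, n = 2) in ESCs and 11.35 ± 0.35 (SD, n = 3) in MEFs. The difference was -1.79 with a standard error of 0.23 and an adjusted p of 0.00366 in limma. Without the S ESC array the limma adjusted p was 0.0526, with a difference of -1.74. Each ESC array lay below all MEF arrays.

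Meg3 averaged 10.82 ± 0.92 (SD, n = 2) in ESCs and 11.79 ± 1.12 (SD, n = 3) in MEFs. The difference of -0.97 had a standard error of 0.79 and an adjusted p of 0.336 in limma, which is not beyond the spread within the cell types. Leaving out 1 array at a time gave between -1.62, without the 2i ESCs, and -0.32, without the S ESCs. Without the 4n 2i MEFs it was -0.40. Rian averaged 7.08 ± 0.18 (SD, n = 2) in ESCs and 7.94 ± 0.43 (SD, n = 3) in MEFs. It entered the fit through the 4n 2i MEF array alone, so its difference of -0.86 is a description and no test is given. Rtl1 and Dio3 were not tested, since they reached no floor.

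Calls required an adjusted p under 0.05 in limma and a difference of 2-fold or more. Of 20 genes of the domain tested, 5 were called lower in ESCs and none higher, where 16.2% of all genes tested were lower and 16.6% higher. The median over the 20 was -0.87, against 0.06 over all genes. All 20 reached the floor on the 4n 2i MEF array, but 9 on the 2i ESC array and 8 on the S ESC array. Most of the 20 thus entered through MEF arrays alone, so this median and the count of 5 are descriptions. Beside Dlk1 the 5 called lower were Mir323, Mir329, Mir382 and Mir134. So 4 of 16 miRNA genes of the domain were lower, while of 37 elsewhere 2 were lower (5.41%) and 2 higher (5.41%). Mir323 had 44.06 and 37.26 intensity units on the 2i and S ESC arrays, against 261.0, 195.1 and 241.6 on the 4n, 2n and control MEF arrays (log2 difference -2.48). Mir382 had 134.3 and 93.82, against 1017, 336.2 and 411.8 (-2.20). The ESC values of Mir323, Mir329 and Mir382 lay below the floor, so the size of these differences depends on background. They entered the fit through MEF arrays alone, the group where they were high, so their calls are a description and no p-value is given. Of the 5 called genes, Dlk1 and Mir134 reached the floor on every array.

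By any amount, both ESC arrays lay below every MEF array for 37 of the 47 genes (78.7%) and above every one for 1, Mir666, where of all 19938 genes 33.4% lay below and 43.9% above. Most of the 37 were below the floor on every array. Among the 20 that reached a floor the count was 12 (60%), against 36.2% of all genes that reached one. Most of the 20 reached it on MEF arrays alone, so this share is a description. Of the miRNA genes elsewhere, 34.6% were below and 35.8% above. The count of 5 lower genes was 1 without the S ESC array and 2 without the 2i ESC array.

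**Figure D5:**
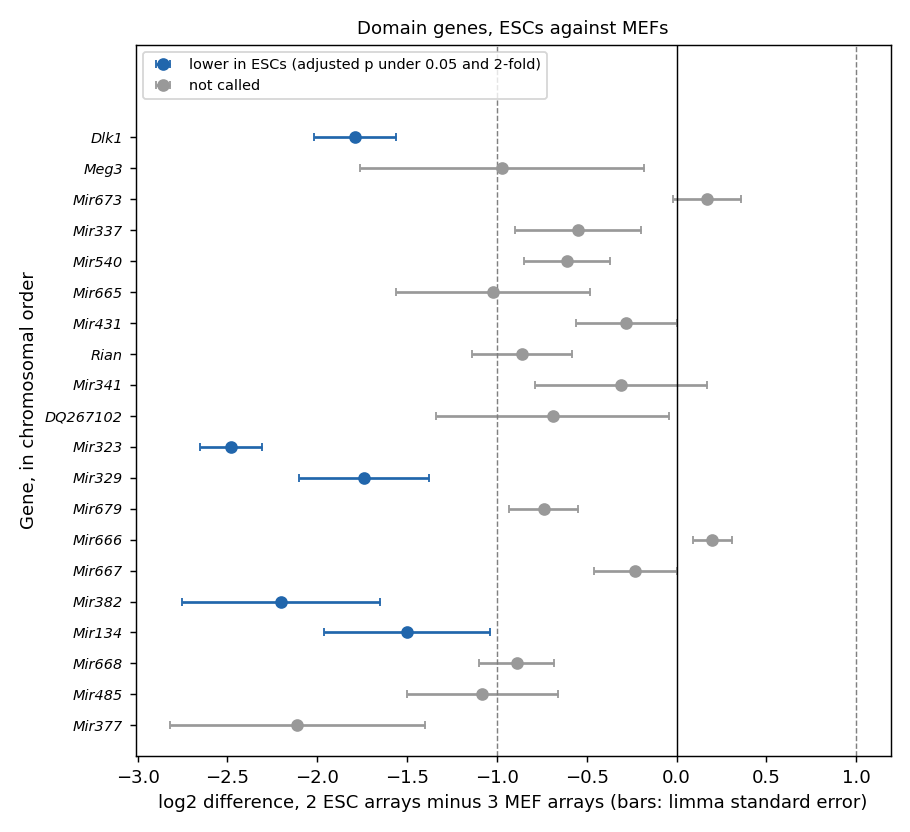
Log2 difference of the 2 ESC arrays minus the 3 MEF arrays (horizontal axis, bars are limma standard errors) for the 20 genes of the domain that were tested. Dlk1, Mir323, Mir329, Mir382 and Mir134 were called lower in ESCs, and the bar of Meg3 is the longest. Rian, Mir337 and Mir431 entered through the 4n 2i MEF array alone. Mir323, Mir329, Mir382, Mir377, Mir485, Mir665, Mir668 and Mir679 entered through MEF arrays alone.

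Promoter windows of Dlk1 and Meg3 are shown because these 2 members, known to be read from opposite parental chromosomes, were above the floor on every array and both highest on the 4n 2i MEF array. The windows run from 250 bases before to 50 after a RefSeq start site in GRCm38.p6, on the plus strand. They are chr12:109452573-109452872 for Dlk1 and chr12:109540746-109541045 for the upstream start of Meg3. The RefSeq gene record of Dlk1 begins at 109452485, so the Dlk1 window lies wholly inside the annotated gene and does not cover its outermost start. Capitals mark CG dinucleotides, the bases at which DNA methylation is set.
Dlk1: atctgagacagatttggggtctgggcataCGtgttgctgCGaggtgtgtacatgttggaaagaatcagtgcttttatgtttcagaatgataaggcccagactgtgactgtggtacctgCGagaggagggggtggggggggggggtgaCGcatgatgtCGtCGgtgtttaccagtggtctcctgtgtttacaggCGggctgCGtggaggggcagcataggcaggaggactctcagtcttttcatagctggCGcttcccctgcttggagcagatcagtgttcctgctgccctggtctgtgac
Meg3: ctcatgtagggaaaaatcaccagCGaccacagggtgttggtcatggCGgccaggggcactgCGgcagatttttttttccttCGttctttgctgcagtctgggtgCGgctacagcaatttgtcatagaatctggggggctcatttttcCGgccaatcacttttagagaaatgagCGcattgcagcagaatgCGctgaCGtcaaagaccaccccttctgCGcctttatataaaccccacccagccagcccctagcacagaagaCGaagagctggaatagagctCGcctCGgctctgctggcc
The Dlk1 window held 9 CG and the Meg3 window 13, and 45.8% and 37.9% of 32851 promoter windows held as many or more. The letters TGCCGC, the core that the imprint-keeping protein ZFP57 binds when methylated, were searched on both strands. They stood once in the Meg3 window, on the minus strand, 190 bases before the start site, and not in the windows of Dlk1, Rian or Dio3. Of all windows 11.6% held them. The control region between Dlk1 and Meg3 lies outside these windows, and no methylation was analysed here.

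Dlk1 is an atypical ligand of Notch receptors, and of 25 Notch pathway genes 17 were compared between 4n 2i MEFs and control MEFs. The Notch target genes Hey1 (851.6 against 186.6 intensity units, log2 difference 2.18) and Heyl (604.5 against 221.2, 1.45) were at least 2-fold higher on the 4n array, the ligand gene Dner was lower (370.6 against 890.9, -1.26), and 14 lay within 2-fold, against 5.23% higher and 3.42% lower among all genes compared. The median was 0.00. The control value of Hey1 lay below the floor. Between 2n 2i MEFs and control MEFs 1 of 17 was at least 2-fold higher, Hey1 (431.4 against 186.6, 1.20), and none lower. Of all genes compared in that pair 1.47% were higher and 0.433% lower. Between 2i ESCs and S ESCs none of 19 was 2-fold apart in either direction, near the 2.78% higher and 2.54% lower of all genes compared.

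In ESCs against MEFs, limma called 4 of 21 Notch pathway genes higher and 3 lower, near the 16.6% higher and 16.2% lower of all genes tested. The receptor gene Notch4 was higher in ESCs by 2.78 on the log2 scale. Its MEF values were identical (147.2 on each array) and below the floor. It entered the fit through the ESC arrays alone, so its difference is a description and no test is given. Jag2 and Mfng, also called higher, had identical MEF values below the floor too. The ligand gene Jag1 fell (-1.52, adjusted p = 0.00992 in limma). Dlk2, the relative of Dlk1, had 183.4 and 151.5 intensity units in 2i and S ESCs and 222.6, 213.8 and 222.6 in 4n 2i, 2n 2i and control MEFs, at the floor on the control array and below it on the other 4.

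Dlk1 is also a marker of adipocyte precursors. Of 12 genes of that list compared between 4n 2i MEFs and control MEFs, 3 were at least 2-fold higher on the 4n array, the fatty acid transporter gene Cd36 (324.8 against 40.73, log2 difference 2.96), Fabp4 (426.9 against 129.0, 1.72) and Cebpa (464.7 against 169.6, 1.45). Of all genes compared 5.23% were higher and 3.42% lower, and the control values of these 3 genes lay below the floor. Pparg, the nuclear receptor that drives adipocyte differentiation, was lower (594.6 against 1207, -1.02), but within 2-fold after quantile normalization. Macrophages are also known to express Cd36 and Fabp4, and the part of the macrophage markers, higher on the same array, was not tested. None of 10 was 2-fold apart in either direction between 2n 2i MEFs and control MEFs, near the 1.47% higher and 0.433% lower of all genes compared.

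Dio3 acts on thyroid hormone. The other deiodinase genes Dio1 and Dio2 and the receptor gene Thrb lay, like Dio3, below the floor on every array. The receptor gene Thra was at least 2-fold higher in 4n 2i MEFs than in control MEFs (2240 against 996.0, log2 difference 1.17). It was the 1 of 6 thyroid hormone genes compared, where 5.23% of all genes compared were higher. Among retrotransposon-derived relatives of Rtl1, Rtl3 had 1754 intensity units in 4n 2i MEFs, 1556 in 2n 2i MEFs and 268.1 in control MEFs (2.70 and 2.53 above it), and Peg10 had 3368, 5171 and 2320. These 2 were the relatives at least 2-fold above the control array on a 2i MEF array, of 4 compared. Of all genes compared 5.23% were that far above it on the 4n array and 1.47% on the 2n array.

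Of the other genes with paternal germline methylation in mouse, 4 were measured and 2 reached a floor, Igf2 and Zdbf2. Igf2, the fetal growth factor gene, had 360.5 intensity units in 4n 2i MEFs, 5700 in 2n 2i MEFs and 6870 in control MEFs, and 184.4 and 682.6 in 2i and S ESCs. Its difference of -4.25 between 4n 2i MEFs and control MEFs was opposite in sign to those of Dlk1 and Meg3, and that of -1.88 between 2i and S ESCs opposite to that of Meg3. Zdbf2 had 728.4, 805.8 and 376.2 in the MEFs, and 1476 and 2416 in the ESCs.

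Of 18 genes that keep or set imprints, 15 were compared between each 2i MEF array and the control. The de novo methyltransferase gene Dnmt3a was at least 2-fold higher in 4n 2i MEFs (719.3 against 275.9, log2 difference 1.38), and none was 2-fold apart in 2n 2i MEFs. Among all genes compared 5.23% were higher and 3.42% lower in 4n 2i MEFs, and 1.47% and 0.433% in 2n 2i MEFs. In 2i ESCs Dnmt3b (373.0 against 1667, -2.16) and Dnmt3a (517.4 against 1105, -1.09) were lower than in S ESCs, and 16 of 18 lay within 2-fold. Of all genes compared between the ESC arrays 2.54% were at least 2-fold lower and 2.78% higher. Zfp57, the factor that protects methylated imprints, had 7220 and 7077 intensity units in 2i and S ESCs and 2067, 1595 and 2380 in 4n 2i, 2n 2i and control MEFs. It rose in ESCs, by 1.85 on the log2 scale (adjusted p = 0.00226 in limma). All 11 genes of Polycomb repressive complex 2, which binds Meg3 RNA in mouse stem cells, were compared, and none was 2-fold apart between the ESC arrays or between a 2i MEF array and the control. In ESCs against MEFs limma called 6 of the 11 higher and 1 lower, where 16.6% of all genes tested were higher and 16.2% lower. Among them were Jarid2 (log2 difference 3.34, adjusted p = 0.000387 in limma) and Phf1, the lower one (-1.41, adjusted p = 0.00191 in limma).

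The genes most like each member over the 5 arrays were found by the root-mean-square difference of log2 profiles centred on each gene's mean, among 11432 named genes. For Dlk1 these were Maml2, a Notch coactivator, at 0.07, Cnppd1 at 0.08, Tmem164 at 0.09, the purinergic receptor gene P2rx4 at 0.09 and Zfp637 at 0.10. For Rian they were Tbx2, a T-box transcription factor gene, at 0.05, the autophagy gene Map1lc3a and Plekhf1 at 0.06, Tanc2 at 0.07 and Rnpepl1 at 0.08. Rian reached the floor on the 4n 2i MEF array alone, so its profile holds an unknown part of background. No gene came as close to Meg3, whose nearest were Serping1 at 0.41, the C1 inhibitor of complement, Bri3 at 0.42, Sirpa and Vnn1 at 0.43 and Dtx3 at 0.44. Serping1 had 921.1 and 542.3 intensity units in 2i and S ESCs and 3228, 947.2 and 866.2 in 4n 2i, 2n 2i and control MEFs, so it did not share the low value of Meg3 on the 2n array. These are descriptions over 5 arrays and carry no test.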

How the data were processed

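Total RNA of 5 samples was hybridised to whole-transcript arrays, 1 per group, per the labels' protocols. The authors deposited linear intensity values for 28853 probe sets. The background correction, summarisation and normalization of these intensities are not given in the sources used here. Arrays have no sequencing depth, and their number limits the precision.

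Of the probe sets 21789 carried 1 gene symbol and 1621 several. Current names and the order of genes came from RefSeq's table for GRCm38.p6, matched on Entrez Gene number for 21698 of them. miRNA and promoter sequences are RefSeq's of the same build. Intensities were analysed as log2(value + 1). The probe set with the highest mean log2 value stood for a gene. Pairs of arrays were compared by a threshold of 2-fold with no test. The 2 ESC and 3 MEF arrays were compared with lmFit and eBayes of limma and p-values adjusted by Benjamini-Hochberg, with 3 residual degrees of freedom, a step tested on simulated data.

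The members and the 17 gene lists were chosen with earlier results of these data known. The genes named were the members, all genes from Dlk1 to Dio3, 6 neighbours on each side, up to 4 genes of a list per comparison by size of difference, and the 5 genes of most similar profile. List genes below the floor, and list genes whose values are compared with those of a member, were named after their values were seen. miRNA genes outside the domain were added as a background after the data were seen. Alternatives changed the pseudocount, normalization, probe set rule, floor, threshold, limma prior, arrays included and genes of identical values. The software was R 4.3.3 with limma 3.58.1, and Python 3.11.15 with pandas 2.3.3, numpy 2.4.6 and matplotlib 3.10.9.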

Additional observations from a re-analysis of the deposited data

Results flagged for a closer look

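Several genes of the domain lay below the control MEF array on the 2n 2i MEF array and above it on the 4n 2i MEF array, with at least 1 of the differences beyond 2-fold. The log2 difference of 4n minus 2n was 2.24 for Meg3, 2.12 for Mir377, 1.64 for Mir665, 1.59 for Mir382, 1.36 for Mir341 and 1.24 for Mir485. With 1 array a group, these differences between the groups were not tested.

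Probe sets that list more than 1 gene stand for no single gene in the report, and 3 of them lie in the domain. The one listing AF357355 and Rian had 1577 intensity units on the 4n 2i MEF array, 613.3 on the 2n 2i MEF array and 536.9 on the control MEF array (1.55 for 4n minus control, log2). The one listing Mirg and Mir410 had 1107, 323.9 and 320.9 (1.78), and 359.8 in 2i ESCs against 166.6 in S ESCs (1.11). The one listing Mir433 and 6430411K18Rik had 479.6, 239.8 and 303.9 (0.66). All of them were highest on the 4n 2i MEF array.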

How the results depend on the processing

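No paired analysis was possible because each group has 1 array and no replicate numbers to share. Where a pair had no replicates, a value was taken as moved when it shifted by more than 0.31, the SD of 2n 2i MEFs minus control MEFs over genes past the floor (log2). By this measure no log2 difference of Dlk1, Meg3, Rian, Rtl1 or Dio3 between a pair of arrays moved under a pseudocount of 16 or quantile normalization. The floor and the probe set rule cannot move these values, since each gene has 1 probe set. Counts of domain genes moved mainly with the threshold and the floor, which decide which genes are called and which are compared. At 3-fold, the genes higher in 4n 2i MEFs were 2 against control MEFs and 4 against 2n 2i MEFs, with 0 higher in 2i ESCs against S ESCs, 0 lower in 2n 2i MEFs against control MEFs and 0 lower in 2i ESCs against 2n 2i MEFs. With the floor at the 75th percentile, 6 were higher in 4n than in 2n 2i MEFs and 1 lower in 2i ESCs than in 2n 2i MEFs. With no floor, 8 were lower in that last pair. In limma the domain genes lower in ESCs were 10 with no floor and 3 with the floor at the 75th percentile, and between 1 and 6 with 1 array left out, where a lone ESC array is assumed to vary like the MEF arrays (1 without S ESCs, 2 without 2i ESCs). Dlk1 ranged from -1.89 to -1.59 and lost its call without S ESCs, at an adjusted p of 0.0526 in limma. Over all genes, limma called 1970 higher and 1926 lower in ESCs. The higher ones were 1094 with the floor at the 75th percentile, 971 at 3-fold (1135 lower), 1031 without genes of identical MEF values, and between 1580 and 1873 with 1 array left out (1400 to 2008 lower).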

Other observations

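Other imprinted genes were set beside the domain in the same pairs of arrays, as values with no test. Of 13 genes compared that are known to be expressed from the paternal allele under maternal germline methylation, 6 were at least 2-fold higher in 4n 2i MEFs than in control MEFs and none lower (Mest, Plagl1, Nnat, Airn, Peg3 and Sgce), with a median log2 difference of 0.54. Of all genes compared in this pair 5.23% were higher and 3.42% lower. In 2n 2i MEFs 3 of 13 were higher than in control MEFs (Mest, Plagl1 and Peg10), with a median of 0.33, where 1.47% of all genes compared were higher and 0.433% lower. In 2i ESCs Plagl1 was higher and Nnat lower than in S ESCs, of 11 compared, where 2.78% of all genes compared were higher and 2.54% lower. Of the genes known to be expressed from the maternal allele, 9 were compared, and 3 were lower in 4n 2i MEFs than in control MEFs (Grb10, Igf2r and H13) and 2 in 2n 2i MEFs (Igf2r and Grb10), with medians of -0.40 and -0.18. In 2i ESCs 3 of 11 were lower than in S ESCs (Phlda2, -3.71, Slc22a18, -1.52, and Grb10, -1.47, log2), where 2.54% of all genes compared were lower. Igf2r, the receptor that clears the growth factor IGF2, had 126.3 intensity units in 4n 2i MEFs, 1048 in 2n 2i MEFs and 3048 in control MEFs.

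Markers of the remaining cell types, apart from the neural and glial ones, were mostly below the floor on the MEF arrays. On the 4n 2i, 2n 2i and control MEF arrays 0, 1 and 1 of 7 endothelial markers reached it, 4, 4 and 3 of 10 skeletal muscle markers, 5, 4 and 5 of 8 neural and glial markers, 0, 1 and 1 of 6 liver and placenta markers, and 0, 0 and 0 of 7 neuroendocrine markers. Beyond 2-fold from the control MEF array on the 4n 2i MEF array were Des (log2 difference 3.78), Sox10 (1.83), Map2 (1.03), Tubb3 (-1.19) and the placental gene Prl3a1 (-4.68). On the 2n 2i MEF array they were Des (2.92), Emcn (2.60), Nes (1.70) and Prl3a1 (-2.73). The control values of Des, Sox10 and Emcn and the 4n values of Tubb3 and Prl3a1 lay below the floor. The size of the differences that use these values depends on background.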
